A study of Canis lupus familiaris with 4 samples.

Results

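Amino acid transporters of the solute carrier families SLC1, SLC3, SLC7, SLC36, SLC38 and SLC43 were examined in mesenchymal stromal cells (MSCs) from canine adipose tissue. Members were all rows whose gene symbol carries one of these family names followed by a member number, which gave 37 genes of the 30951 in the table, each with 1 row. Total RNA was sequenced from 4 primary cell lines, 1 per dog and 1 library each. All cultures were untreated: they grew in DMEM with 10% fetal bovine serum and antibiotics, stood in multiwell plates for 48 h and were not compared with another cell type or condition. Per the series title, the study was about how the freeze-dried secretome of such cells acts on microbes. The dogs' breed, sex and age and the passage number were not analysed here.

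Cells take up amino acids through carriers that differ in what drives them. The SLC1 and SLC38 proteins mostly couple uptake to sodium and load the cell with glutamine, alanine, serine or glutamate. The SLC7 light chains are exchangers that reach the membrane as a disulfide-linked pair with a heavy chain, SLC3A2 (CD98) or SLC3A1, and trade such internal amino acids for leucine, cystine or arginine. Members of SLC36, SLC38 and SLC7 also work at the lysosome, where amino acid content is read by the kinase complex mTORC1. Several of these genes, SLC7A11, SLC7A5, SLC3A2 and SLC38A2 among them, are known targets of the transcription factor ATF4, which responds to lack of amino acids.

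Reads assigned to genes numbered 22411268, 16246965, 15203607 and 7474011 in dogs 1 to 4, so values of dog 4 rest on the fewest reads. Normalized reads are reads divided by the library's size factor. A level is the deposited log2 value minus the median of the library's detected genes, and a detected gene had reads in at least 2 of the 4 libraries. Gene lengths were not available in a usable form, so neither scale is per length. Values therefore compare a gene most directly between dogs, and the order of 2 genes within a dog was not read. Levels and calls above or below the median do set a gene against the other genes of its library. These calls, like the words abundant and rare, also depend on transcript length. All 12 MSC marker genes were above the median detected gene, meaning by over 1 log2 unit in the level test given below. They held at least 13.6% of the reads in each of dogs 1 to 3 and 9.60% in dog 4, and COL1A1, COL1A2 and VIM stood apart as low in dog 4. None of the measured endothelial (9), myeloid (7), lymphoid (9), epithelial (5) or adipocyte (6) marker genes was above it by that test. The mean levels of PPARG (0.81) and CSF1R (0.09) lay over the median without passing, though not in every dog. PPARG was at 1.17, 1.17, 1.12 and -0.24 in dogs 1 to 4 and stood apart as low in dog 4. CSF1R was at -0.76, 0.62, 0.88 and -0.36. Of 8 glial and neural markers 1 was above, NCAM1, and GFAP had 0 reads in every dog. The epithelial list stood apart in dog 4: its summed normalized reads were 14.4, 11.1, 30.5 and 943 in dogs 1 to 4. In dog 4 all came from KRT18, with 435 reads, while CDH1 had 0 reads in every dog and EPCAM 1 read in dog 1. The part of these marker differences in the values of dog 4 given below was not tested.

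Transporter transcripts ranged from abundant in every library to absent from all of them. Of the 37 genes, 13 exceeded the median detected gene by over 1 log2 unit (limma, distance 1, Benjamini-Hochberg over 17200 genes), 7 lay as far below it, 9 were neither and 8 were not detected. Among the 29 tested members 44.8% were above and 24.1% below. Over all tested genes 33.3% were above and 35.8% below, and over the 195 tested genes of other SLC families 37.9% and 28.2%. The median level over all 37 members, undetected ones included, was -0.06, against 0.01 over the 15951 genes with a symbol. Members together held 0.222%, 0.286%, 0.291% and 0.252% of the reads of dogs 1 to 4. Of these, 65.5%, 67.7%, 67.3% and 63.0% belonged to SLC38A2, SLC1A5, SLC38A5, SLC7A5 and SLC38A1, a share that also depends on transcript length.

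**Figure D1:**
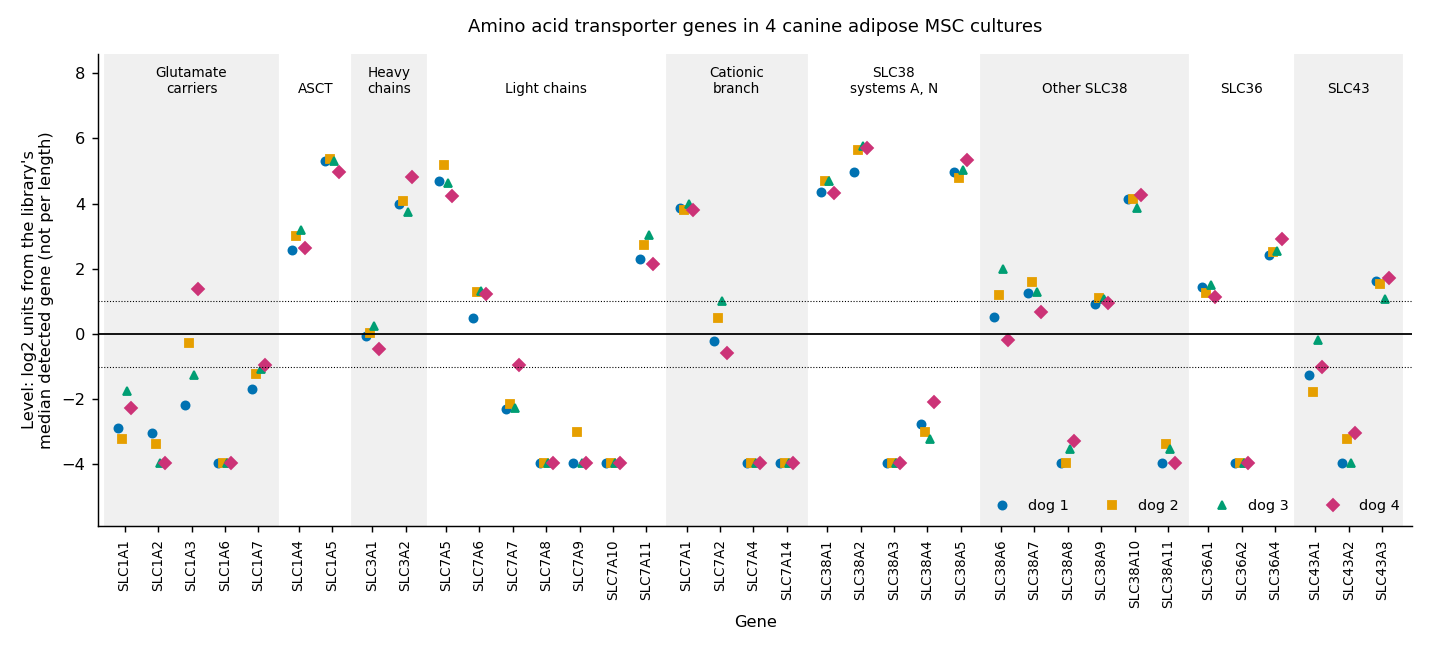
Level of each of the 37 transporter genes in each culture, in log2 units from the library's median detected gene (solid line) and not corrected for length. Points are single libraries, shading separates role classes and dotted lines mark the tested distance of 1, and genes near -4 had 0 reads.

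Both neutral exchangers of SLC1 were above the median detected gene in all 4 cultures. SLC1A5 (ENSCAFG00000004201), the exchanger known as ASCT2 that carries glutamine, had 6302, 6667, 6369 and 4986 normalized reads in dogs 1 to 4. Its level was 5.25 ± 0.18 (mean and SD over 4 dogs, as for each level with ±; limma, Benjamini-Hochberg adjusted p = 4.00e-09). Dogs 1 to 3 lay close together and dog 4 lay below them. SLC1A4, its relative ASCT1 for alanine, serine and cysteine, had 928, 1266, 1435 and 972 normalized reads and a level of 2.85 ± 0.28. Dogs 2 and 3 were the higher pair, and the highest dog had 1.55 times the reads of the lowest.

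The glutamate carriers of SLC1, best known from neurons, glia and retina, were low, and none was above the median detected gene. SLC1A3, the glial glutamate carrier GLAST, differed most between cultures of all 37 genes, with 17.2, 113, 47.7 and 390 normalized reads (24, 122, 50 and 180 reads). Dog 4 was highest and dog 1 lowest, 22.6 times apart, and 6.53 times apart among dogs 1 to 3. Its level was -0.59 ± 1.52 and did not pass the level test. The glial and neural marker list summed to 377, 472, 690 and 815 normalized reads in dogs 1 to 4, most of them NCAM1; its part in the SLC1A3 values was not tested. SLC1A7, a carrier described in retina, had 30.9, 49.8, 57.3 and 62.9 normalized reads and was neither above nor below at -1.23 ± 0.32. In the dog RefSeq annotation SLC1A7 overlaps PODN, which was read far more often, and the strand setting of the counting is not given, so its reads are uncertain. SLC1A1, the neuronal and epithelial carrier EAAC1, was below at -2.54 ± 0.65, with 8, 3, 31 and 7 reads. SLC1A2, the main glutamate carrier of the forebrain, was below as well, with 6 and 2 reads in dogs 1 and 2 and 0 in dogs 3 and 4. SLC1A6 had 0 reads in every dog.

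Of the heavy chains, SLC3A2 was above the median detected gene and SLC3A1 stood at it. SLC3A2 (ENSCAFG00000015495), the CD98 heavy chain that carries SLC7A5, SLC7A6, SLC7A7, SLC7A8, SLC7A10 and SLC7A11 to the surface, had 2471, 2727, 2149 and 4426 normalized reads and a level of 4.16 ± 0.46 (limma, adjusted p = 6.58e-08). Dog 4 was highest, 2.06 times the lowest, and dogs 1 to 3 lay within 1.27 times of each other. SLC3A1, the heavy chain rBAT of the renal and intestinal cystine exchanger, had 131, 144, 172 and 95.4 normalized reads and a level of -0.06 ± 0.30. SLC3A1 overlaps PREPL in the RefSeq annotation, with 606, 615, 619 and 475 normalized reads of PREPL, so reads of the pair may be mixed. SLC7A9, the light chain that pairs with SLC3A1, had 5 reads, all in dog 2.

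Among the light chains, SLC7A5 and SLC7A11 were above the median detected gene. SLC7A5 (ENSCAFG00000019901), the LAT1 chain that brings leucine and other large neutral amino acids in exchange for glutamine, had 4092, 5814, 3930 and 2984 normalized reads and a level of 4.68 ± 0.38 (limma, adjusted p = 1.39e-08). Dog 2 was highest and dog 4 lowest. SLC7A11 (ENSCAFG00000003749), the xCT chain that takes up cystine for glutathione synthesis and releases glutamate, had 766, 1053, 1290 and 677 normalized reads and a level of 2.55 ± 0.40 (adjusted p = 5.95e-06). Dog 3 was highest and dog 4 again lowest. SLC7A6, a chain that exchanges arginine or lysine for glutamine with sodium, had 204, 370, 378 and 349 normalized reads. Dog 1 stood below the other 3, which lay within 1.08 times of each other, and the level of 1.07 ± 0.39 did not pass the test.

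The remaining light chains were rare or silent. SLC7A7, the y+LAT1 chain whose loss causes lysinuric protein intolerance in people, was below at -1.91 ± 0.65 with 21, 20, 17 and 29 reads. Scaled for depth these were 15.1, 18.5, 16.2 and 62.9 normalized reads, so dog 4 stood apart from 3 cultures that lay within 1.22 times of each other. In RefSeq the SLC7A7 gene overlaps MMP14, LRP10 and MRPL52, and MMP14 had 22943, 23419, 17347 and 14072 normalized reads, far more than SLC7A7. Without the strand setting reads of these genes may be mixed, so the level of SLC7A7 and its value in dog 4 are uncertain. SLC7A8, the LAT2 partner of SLC3A2 in kidney and other epithelia, and SLC7A10, the small neutral exchanger found in brain and white adipocytes, had 0 reads in every dog. SLC7A10 overlaps LRP3 in RefSeq, so its 0 reads also depend on how shared reads were counted. Over all 4 libraries 0 reads allow at most 0.0489 CPM (counts scaled to a fixed total of assigned reads), and taken singly dogs 1 to 4 allow 0.134, 0.185, 0.197 and 0.401. These limits are set at 3 reads and cover counting error only.

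The reads of each light chain were also set against those of SLC3A2 within a dog, a ratio in which transcript length drops out when dogs are compared. All 4 ratios share SLC3A2, which was highest in dog 4, so their values in dog 4 are not independent of each other. The log2 ratio of SLC7A5 to SLC3A2 was 0.73, 1.09, 0.87 and -0.57 in dogs 1 to 4. Dog 4 was lowest, though its gap to the others (0.781 of the range) stayed under Dixon's limit of 0.829. For SLC7A11 the log2 ratio was -1.69, -1.37, -0.74 and -2.71, with dog 4 lowest. For SLC7A6 it was -3.60, -2.88, -2.51 and -3.66, with dogs 1 and 4 alike, while the reads of SLC7A6 themselves were lowest in dog 1. For SLC7A7, whose reads are uncertain, it was -7.36, -7.21, -7.05 and -6.14, with dog 4 highest. These ratios were chosen after the values were seen and have no test.

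**Figure D2:**
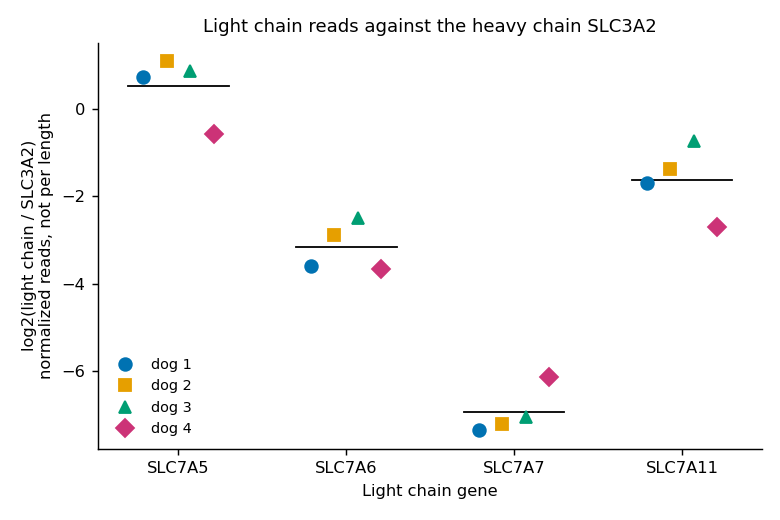
Log2 ratio of the normalized reads of 4 light chain genes to those of the heavy chain gene SLC3A2, by culture. Points are single libraries and black lines the mean of 4 dogs; dog 4 is lowest for SLC7A5, SLC7A6 and SLC7A11 and highest for SLC7A7, and SLC3A2 is shared by all ratios.

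In the cationic branch of SLC7, 1 gene was abundant and steady. SLC7A1 (ENSCAFG00000006660), the CAT1 carrier for arginine, lysine and ornithine, had 2266, 2235, 2533 and 2208 normalized reads and a level of 3.86 ± 0.08 (limma, adjusted p = 6.65e-09). Its SD was the smallest among the 29 detected transporters, and its cultures lay within 1.15 times of each other. SLC7A2, the inducible CAT2 relative, had 116, 206, 305 and 86.7 normalized reads, a level of 0.17 ± 0.71 and a 3.52-fold range. Dog 3 was highest and dog 4 lowest. SLC7A4 and SLC7A14, the latter a lysosomal protein, had 0 reads in every dog, and SLC7A3 was not analysed here.

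Of the sodium-coupled SLC38 carriers of systems A and N, 3 of 5 were above the median detected gene and their values were high in every culture. SLC38A2 (ENSCAFG00000009261), the system A carrier SNAT2 that cells raise when amino acids are scarce, had 4904, 7970, 8745 and 8243 normalized reads and a level of 5.51 ± 0.38 (limma, adjusted p = 5.47e-09). Dog 1 stood below the other 3. In RefSeq SLC38A2 overlaps the protein-coding gene LOC119866347, whose reads were not examined, so reads of this pair may be mixed. SLC38A1, its system A relative for glutamine, had 3234, 4160, 4119 and 3138 normalized reads and a level of 4.51 ± 0.20, with dogs 2 and 3 the higher pair. SLC38A5, a system N carrier that exchanges protons and moves glutamine, histidine, serine and glycine either way, had 4899, 4413, 5293 and 6332 normalized reads and a level of 5.03 ± 0.23. Dog 4 was highest there and dog 2 lowest, 1.43 times apart.

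SLC38A3, the system N carrier of liver, kidney and brain, had 0 reads in every dog. SLC38A4, the system A carrier of liver and placenta, was below at -2.77 ± 0.49, with 10, 5, 3 and 9 reads. In the RefSeq gene order SLC38A1 and SLC38A2 are direct neighbours and SLC38A4 follows with 1 gene between it and SLC38A2, so 2 abundant genes and 1 rare gene share a neighbourhood. SLC36A1 and SLC36A2 are direct neighbours as well, and there SLC36A1 was above and SLC36A2 had 0 reads.

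SLC38A9, SLC38A7, SLC36A1 and SLC36A4, known from lysosomes or other internal membranes, were detected in every culture, unlike SLC7A14. SLC38A9, the lysosomal carrier that senses arginine for mTORC1, had 278, 322, 321 and 284 normalized reads and a level of 1.00 ± 0.09, which was neither above nor below. SLC38A7, which exports glutamine and asparagine from lysosomes, had 362, 465, 369 and 232 normalized reads and a level of 1.20 ± 0.39. It did not pass the test with all dogs but was above without dog 4 (level 1.38, limma adjusted p = 0.0147), where it was lowest. SLC36A1, the proton-coupled carrier PAT1 of plasma membrane and lysosome, had 406, 363, 438 and 330 normalized reads and was above at 1.33 ± 0.17 (adjusted p = 0.0233). That call was lost without dog 1 (adjusted p = 0.0761), dog 2 (0.0570) or dog 3 (0.0902). SLC36A4, a relative with affinity for proline and tryptophan, was above at 2.59 ± 0.21, with 837, 896, 911 and 1165 normalized reads and dog 4 highest.

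SLC38A10, a widely expressed member with a less defined role, was above at 4.09 ± 0.17, with 2763, 2794, 2309 and 3023 normalized reads. SLC38A6 varied more than any member except SLC1A3, with 205, 350, 621 and 119 normalized reads and a level of 0.88 ± 0.94. Dog 3 was highest and dog 4 lowest, 5.20 times apart, and 3.03 times apart among dogs 1 to 3. It overlaps TRMT5 in RefSeq, whose 195, 256, 305 and 193 normalized reads also had dog 3 highest and dog 4 lowest, over a smaller range, so reads of this pair may be mixed too. SLC38A8 (1 read each in dogs 3 and 4) and SLC38A11 (2 and 1 reads in dogs 2 and 3) were below, at the edge of detection.

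In SLC43, SLC43A3 was above the median detected gene at 1.48 ± 0.29, with 465, 448, 316 and 503 normalized reads and dog 3 lowest. It belongs to the family by sequence but is known to carry purine bases, not amino acids. SLC43A1, the LAT3 carrier that lets branched-chain amino acids pass without sodium, had 47.4, 28.6, 121 and 58.6 normalized reads, a level of -1.06 ± 0.66 and dog 3 highest. SLC43A2, the related LAT4, was below at -3.54 ± 0.49, with 3 reads in dog 2, 2 in dog 4 and 0 in dogs 1 and 3.

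Spread between cultures was then compared over the 22 members with a mean of at least 30 normalized reads. In 15 of them the highest culture had less than 2 times the reads of the lowest, and in SLC1A3, SLC1A7, SLC3A2, SLC7A2, SLC38A6, SLC38A7 and SLC43A1 at least 2 times. Those 7 became 4 without dog 4, when SLC1A7 (1.85 times), SLC3A2 (1.27) and SLC38A7 (1.28) dropped out, and 6 without any other dog. Without dog 1 SLC1A7 ranged over 1.26 times, and without dog 3 SLC43A1 ranged over 2.05 times instead of 4.24. The SD of the 22 members ran from 0.08 (SLC7A1) to 1.52 (SLC1A3) with a median of 0.31, against a median of 0.30 over the 11442 genes with as many reads. The test of variance against the trend called 0 of 29 members and 0.0% of the 17200 tested genes (limma, Benjamini-Hochberg). At an unadjusted p under 0.05 it held 2 members, SLC1A3 (limma, adjusted p = 0.460) and SLC38A6 (adjusted p = 0.630). A single library stood apart by Dixon's ratio in 4 of the 29 members (SLC1A5, SLC7A6, SLC7A7 and SLC38A2), against 5.36% of all tested genes.

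**Figure D3:**
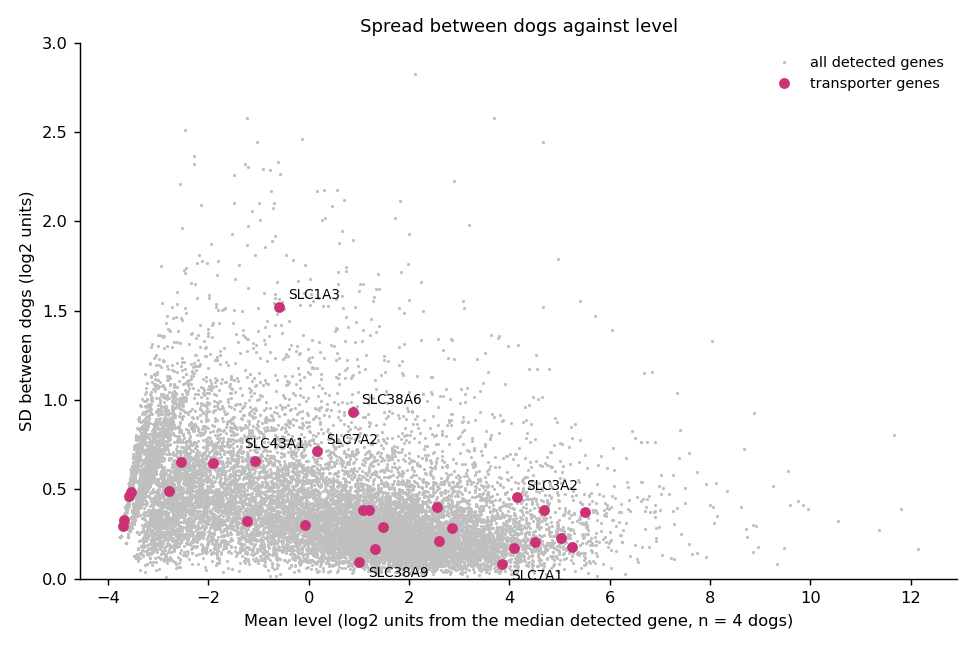
SD between the 4 dogs against mean level, both in log2 units, for all detected genes (grey) and the 29 detected transporter genes (pink). SLC1A3 (1.52) and SLC38A6 (0.94) lie high for their level, and SLC7A1 (0.08) and SLC38A9 (0.09) lie at the lower edge.

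**Figure D4:**
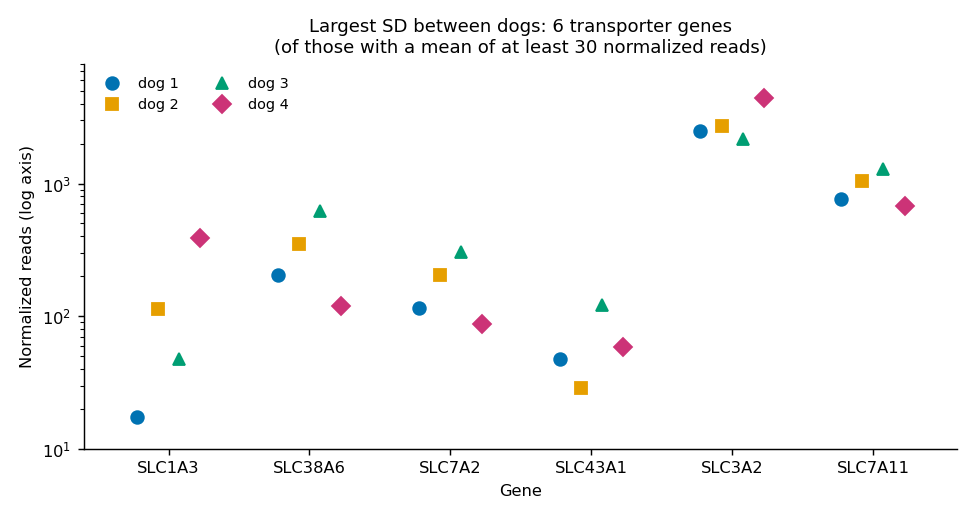
Normalized reads on a log axis for the 6 members with the largest SD among those with a mean of at least 30 normalized reads; points are single cultures. Dog 4 is highest for SLC1A3 and SLC3A2 and lowest for SLC38A6, SLC7A2 and SLC7A11, and dog 3 is highest for SLC38A6, SLC7A2, SLC43A1 and SLC7A11.

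The cultures did not share 1 direction. Among the 22 members dog 4 was highest in 7 and lowest in 9, against 33.0% and 34.0% of all genes with as many reads. Dog 3 was highest in 10 members (24.5% of all genes) and dog 1 in none (25.8%), while dog 1 was lowest in 7 (20.4%). SLC3A1, SLC7A2, SLC7A11 and SLC38A6 had the same order, with dog 3 highest, then dogs 2, 1 and 4; that order held for 7.04% of all 11442 genes. Dog 4 also had the lowest depth, and the part of depth in these orders was not tested.

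**Figure D5:**
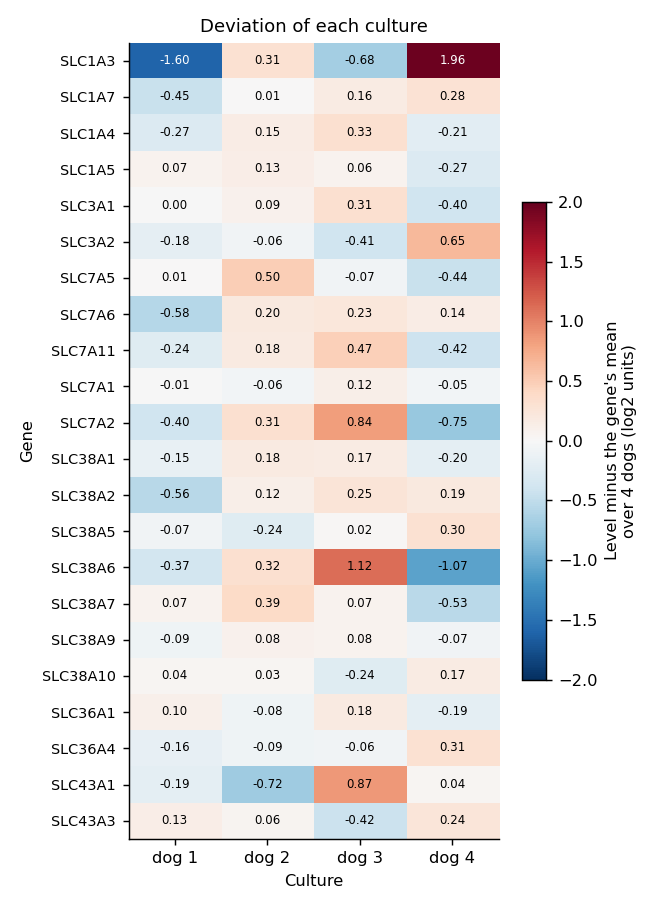
Level of each culture minus the gene's mean over 4 dogs, in log2 units, for the 22 members with a mean of at least 30 normalized reads, by role class. Red is above and blue below the gene's mean; dog 4 runs from -1.07 (SLC38A6) to 1.96 (SLC1A3).

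Genes of the pathways around the transporters were read from lists. Some genes are in 2 lists, so the shares of the lists are not independent. ASNS, ALDH18A1 and PYCR1 are in the lists of the amino acid response and of glutamine and related enzymes. CHAC1 is in the response and thiol lists, and SESN2 in the response and sensing lists. Over all tested genes 33.3% were above and 35.8% below, the shares to hold beside each list. Of 24 measured genes of the amino acid response, 19 (79.2%) lay above the median detected gene by the level test. In the same list 1 (4.17%) lay below and 4 did not pass. PSAT1 (5.70 ± 0.39), an enzyme of serine synthesis, ATF4 itself (5.60 ± 0.09), the mitochondrial enzyme SHMT2 (5.50 ± 0.15) and asparagine synthetase ASNS (5.12 ± 0.20) were above. The stress factor DDIT3 (0.49 ± 0.37) was neither, and the secreted GDF15 (-2.53 ± 0.56) was below. ATF4 differed by less between dogs than the other 5 genes just named. The glutathione-degrading enzyme CHAC1 had levels of 0.83, 2.64, 2.22 and 1.66 in dogs 1 to 4, and the leucine sensor SESN2 had 1.23, 2.63, 2.71 and 1.47. Both were highest in dogs 2 and 3, as was SLC7A11, at levels of 2.31, 2.74, 3.02 and 2.13. The other transporters named above as ATF4 targets were not. SLC7A5 was highest in dogs 2 and 1, SLC3A2 in dogs 4 and 2 and SLC38A2 in dogs 3 and 4. CHAC1 and SESN2 were picked after their values were seen, and the list as a whole did not share their pattern. ATF4, DDIT3, TRIB3, PSAT1, MTHFD2 and PPP1R15A also had dogs 2 and 3 highest. DDIT4, CEBPB, STC2, VLDLR, EIF2AK4 and GDF15 were highest in dog 4. ATF3, NUPR1, EIF2S1, SHMT2, ALDH18A1 and PYCR1 were highest in dog 1. ATF5, CEBPG, ASNS and PSPH were highest in dog 2 or 3 with dog 1 next.

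Of 35 measured genes of lysosomal amino acid sensing and mTORC1, 17 (48.6%) were above, 3 (8.57%) below and 15 neither. The kinase MTOR (4.25 ± 0.17), its activator RHEB (3.54 ± 0.20) and TSC2 (3.31 ± 0.16), which acts on the inhibitory side, were above. LAPTM4B (-3.17 ± 0.95), which brings SLC7A5 to lysosomes, had 27 reads in dog 1, 4 in dog 4 and 0 in dogs 2 and 3. TM4SF5 (-3.39 ± 0.64) and RRAGB (-2.40 ± 0.42) were the others below.

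Of 11 measured genes for cystine, glutathione and thiols, 8 (72.7%) were above, 1 (9.09%) below and 2 neither. Thioredoxin reductase TXNRD1 (4.82 ± 0.13), MAT2A (3.81 ± 0.08) for S-adenosylmethionine, glutathione synthetase GSS (2.24 ± 0.16) and AHCY (1.89 ± 0.31) were above. The peptidase GGT5 was below at -1.76 ± 0.95, a call lost without dog 2 (limma, adjusted p = 0.0948) or dog 4 (0.150). CHAC2 was neither at -1.51 ± 0.67 and was below without dog 4 (-1.82).

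Of 21 measured enzymes of glutamine, glutamate, proline, arginine and branched-chain amino acids, 10 (47.6%) were above, 4 (19.0%) below and 7 neither. ASNS (5.12 ± 0.20) and the proline synthesis enzymes PYCR1 (4.44 ± 0.13) and ALDH18A1 (4.30 ± 0.21) were above. The arginine enzymes ASS1 (-2.81 ± 0.93) and NOS2 (-3.09 ± 0.63) were below, as were GLS2 and ARG1. Without dog 1, 2 genes of this list were below.

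Of 21 measured amino acid carriers outside the 6 families, 5 were above, 5 below, 1 neither and 10 not detected. Among the 11 tested carriers 45.5% were above and 45.5% below, against 33.3% and 35.8% of all tested genes. The glycine carrier SLC6A9 (3.47 ± 0.21), the lysosomal histidine and peptide carrier SLC15A4 (3.32 ± 0.24), the taurine carrier SLC6A6 (2.51 ± 0.71) and SLC6A17 (2.06 ± 0.41) were above. SLC6A12 (-3.21 ± 0.69) and SLC6A7 (-3.29 ± 0.72) were below.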

How the data were processed

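Per the file headers, the authors deposited log2-scale values after a variance-stabilizing transformation; DESeq2, FastQC 0.12.1, Trimmomatic 0.39, STAR 2.7.11a and build CanFam3.1 are named in the submitters' processing notes; which counter, strand setting and annotation release were used is not given in the sources used here. A stranded kit that depletes ribosomal RNA was used on 10 ng of RNA per library, per the labels' protocols. Inverting the transformation gave whole reads for 100% of values above the lowest, within 0.01 reads. Levels were tested with limma 3.58.1 (R 4.3.3): intercept-only fit, trended prior, treat with a distance of 1, Benjamini-Hochberg at 0.05 over 17200 detected genes. Variance was tested against the trended prior by an F test. On simulated data over 16551 genes the level test called 100% of 50 genes placed 2 above and 0% of 50 placed at the median. There the variance test called 96% of 100 genes with an SD of 2.5. In the cultures KRT18 had an SD of 2.58 and was not called (variance F test, adjusted p = 0.213). The largest SD of a member was 1.52 (SLC1A3), and how often the variance test calls a gene at that SD was not tested.

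Members, lists and tests were chosen with earlier results of these data known. Every member is named. Values in every dog are given for both heavy chains, for up to 4 members with the highest level per role class, for members with 1 library standing apart and for the 6 with the largest SD among those with a mean of at least 30 normalized reads. Up to 4 highest and 2 lowest genes are given per list, and some of these are not reported here. Columns were assigned to samples by the dog number in their names. With 1 culture and 1 library per dog, the spread between cultures includes technical differences. The level test uses that spread, moderated by the trended prior, as its error, and its p-values concern the distance from the median. Only the p-values of the variance test concern the spread itself. RefSeq (UU_Cfam_GSD_1.0), which matched 37 of 37 members by symbol, gave gene neighbours only. Planned per-length levels and tests of gene pairs were not run, since only genomic spans were at hand. Tables were handled in numpy 2.4.6 and pandas 2.3.3.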

Additional observations from a re-analysis of the deposited data

Results flagged for a closer look

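A library stood apart when the distance to its nearest neighbour, as a share of the range over 4 dogs, passed Dixon's 0.829, which chance gives in about 1 of 20 genes. Among the 29 tested members this held for 4 (13.8%), against 5.36% of all tested genes. Dog 4 stood below the others for SLC1A5 (ratio 0.832) and above them for SLC7A7 (0.901). Dog 1 stood below the others for SLC7A6 (0.893) and for SLC38A2 (0.836). SLC7A9, not detected by the rule used here, had its 5 reads in dog 2 alone (0.975). Among the named pathway genes, PSAT1 was lowest in dog 4 (0.869), with levels of 5.86, 5.97, 5.86 and 5.13 in dogs 1 to 4. DDIT4 was highest in dog 4 (0.867), with levels of 4.70, 4.53, 4.61 and 5.81. These were the 2 (8.33%) of 24 amino acid response genes with a library standing apart. Of 12 MSC markers 3 (25.0%) stood apart, COL1A1 (0.999), COL1A2 (0.918) and VIM (0.900), all low in dog 4. Among tested markers of the other cell types, KRT18 was high in dog 4 (0.837) and PPARG low in dog 4 (0.970). CD68 was also high in dog 4 (0.844), on 7, 4, 5 and 9 reads. Of the genes that overlap a member, PREPL was low in dog 4 (0.982) and PODN low in dog 2 (0.872). LRP3 and LOC119866347, which overlap SLC7A10 and SLC38A2, were not examined.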

How the results depend on the processing

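The number of members above the median detected gene was 12 to 14 when 1 dog was left out and 11 with the median taken over genes with reads in all 4 dogs, which moved the median by 0.80 to 0.84. With that reference SLC36A1 (0.51) and SLC43A3 (0.66) lost their calls and SLC1A7 (-2.06) and SLC43A1 (-1.89) were below. There, 5 sensing genes were below, 3 thiol genes above and 2 below, and 3 other carriers above. Members below numbered 7 without any 1 dog, 15 with no filter, so that undetected genes were tested too, and 2 among genes with a mean of at least 10 normalized reads. Testing every gene gave 0 thiol genes, 2 enzymes of the glutamine group and 15 other carriers below. The filter at 10 normalized reads gave 1 sensing gene, 0 thiol genes and 2 other carriers below. A log2 scale with a pseudocount of 1 gave 2 thiol genes below. Leaving out 1 dog gave 0 to 1 thiol genes and 2 to 3 enzymes of the glutamine group below. The variance test called 0 members under each alternative run, with 1 or 2 at an unadjusted p under 0.05. Over all tested genes it called 15 without dog 4, 4 without dog 2 and 1 without dog 3, against 0 with all dogs. Members whose highest culture had at least 2 times the reads of the lowest numbered 4 to 6 when 1 dog was left out, against 7, an alternative chosen after seeing the data. Levels by quantile normalization or a prior without a trend changed no call of a member. Levels per length and the tests of gene pairs were not run. Depth limits the rare members: 1 read in dog 4 moves a value more than 1 read in dog 1. No paired analysis was possible because there is 1 group.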
